A study of Arabidopsis thaliana with 3 samples.

Results

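LCR and SCRL genes of Arabidopsis thaliana encode small secreted peptides rich in cysteine, and they were described here for their cover by the histone variants H2A.W.6 and H2A.W.7. The members were the protein-coding genes of the annotation whose symbol is LCR or SCRL followed by a number. The choice used no measured value, though earlier results of these data were known. It gave 107 of 27444 protein-coding genes, 80 LCR genes and 27 SCRL genes. Leaves 2 to 3 weeks old were used for an H2A.W.6 immunoprecipitation, an H2A.W.7 immunoprecipitation and a control, with 1 library each. Neither the plants' genotype nor the nature of the control library is stated in the labels. Nuclei were digested with micrococcal nuclease, which cuts the DNA between nucleosomes, and the DNA bound to each variant was read as pairs of 50 bp. Each immunoprecipitation gave an arm list and a centromeric list of enriched regions, 4 lists in all.

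LCR stands for low-molecular-weight cysteine-rich, and SCRL for a likeness to SCR, the pollen protein by which Brassica plants recognise and reject their own pollen. The peptides resemble defensins, in which disulphide bridges between cysteines hold a short chain in a fixed fold. Some defensins act against fungi, and others carry signals between pollen and pistil. Such peptide families tend to sit in tandem copies. H2A.W is the class of H2A histones that marks heterochromatin in plants, the compact chromatin where transposons lie. The region lists hold no expression values, so whether a given gene was active in these leaves was not analysed here.

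A list gives only the position of each region, so cover is the percent of a gene's bases that lie in regions of a variant. Neither list has heights or read counts, and the depth of the libraries is therefore unknown. With 1 library per variant no difference could be checked against replicates, and none was tested. The H2A.W.6 lists held 3982 arm and 14125 centromeric regions, the H2A.W.7 lists 7750 and 17643. Intervals in the text are 95% Wilson intervals that cover the counting of genes only, and neighbouring genes are not independent. Both lists were made from libraries that share the control, whose part in the overlap of the lists was not tested.

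The members were short genes of 270 to 1558 bp, with a median of 584 bp, against 2078 bp for all protein-coding genes. The arms held 93 of them and the centromeric part 14. Their centromeric share was 13.1%, against 7.65% for all protein-coding genes. Chromosome 4 carried 34 members, and chromosome 2 carried 10 of the 14 centromeric ones. Runs of neighbouring members with no other protein-coding gene between them numbered 14, all in the arms, and held 39 genes. The largest run held 7 LCR genes on chromosome 4.

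Few bodies of arm LCR and SCRL genes held either variant, as was the case for arm protein-coding genes at large. For H2A.W.6, 0 of 93 arm members had a covered base (interval 0 to 3.97%), beside a background of 2.51% of all arm protein-coding genes. For H2A.W.7 the count was 3 of 93, or 3.23% (1.1 to 9.06), beside 4.99% of all arm protein-coding genes. With 50% or more of the body covered, the counts were 0 with H2A.W.6 and 2 with H2A.W.7, beside 1.05% and 1.82% of all arm protein-coding genes. The intervals of the counts of covered bodies include this background, which is not matched for length, for both variants. For any covered base they lie below the shares of arm genes of the same length class, 5.51% with H2A.W.6 and 10.5% with H2A.W.7. Yet they include the shares of such genes that carry a symbol, 1.93% with H2A.W.6 and 5.82% with H2A.W.7. Those genes were chosen after seeing the data, and none of these differences was tested. The mean cover of an arm member's body was 0% with H2A.W.6 and 1.35% with H2A.W.7, and the median was 0% for both. Over all arm protein-coding genes the means were 1.11% with H2A.W.6 and 1.98% with H2A.W.7, with medians of 0%.

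**Figure D1:**
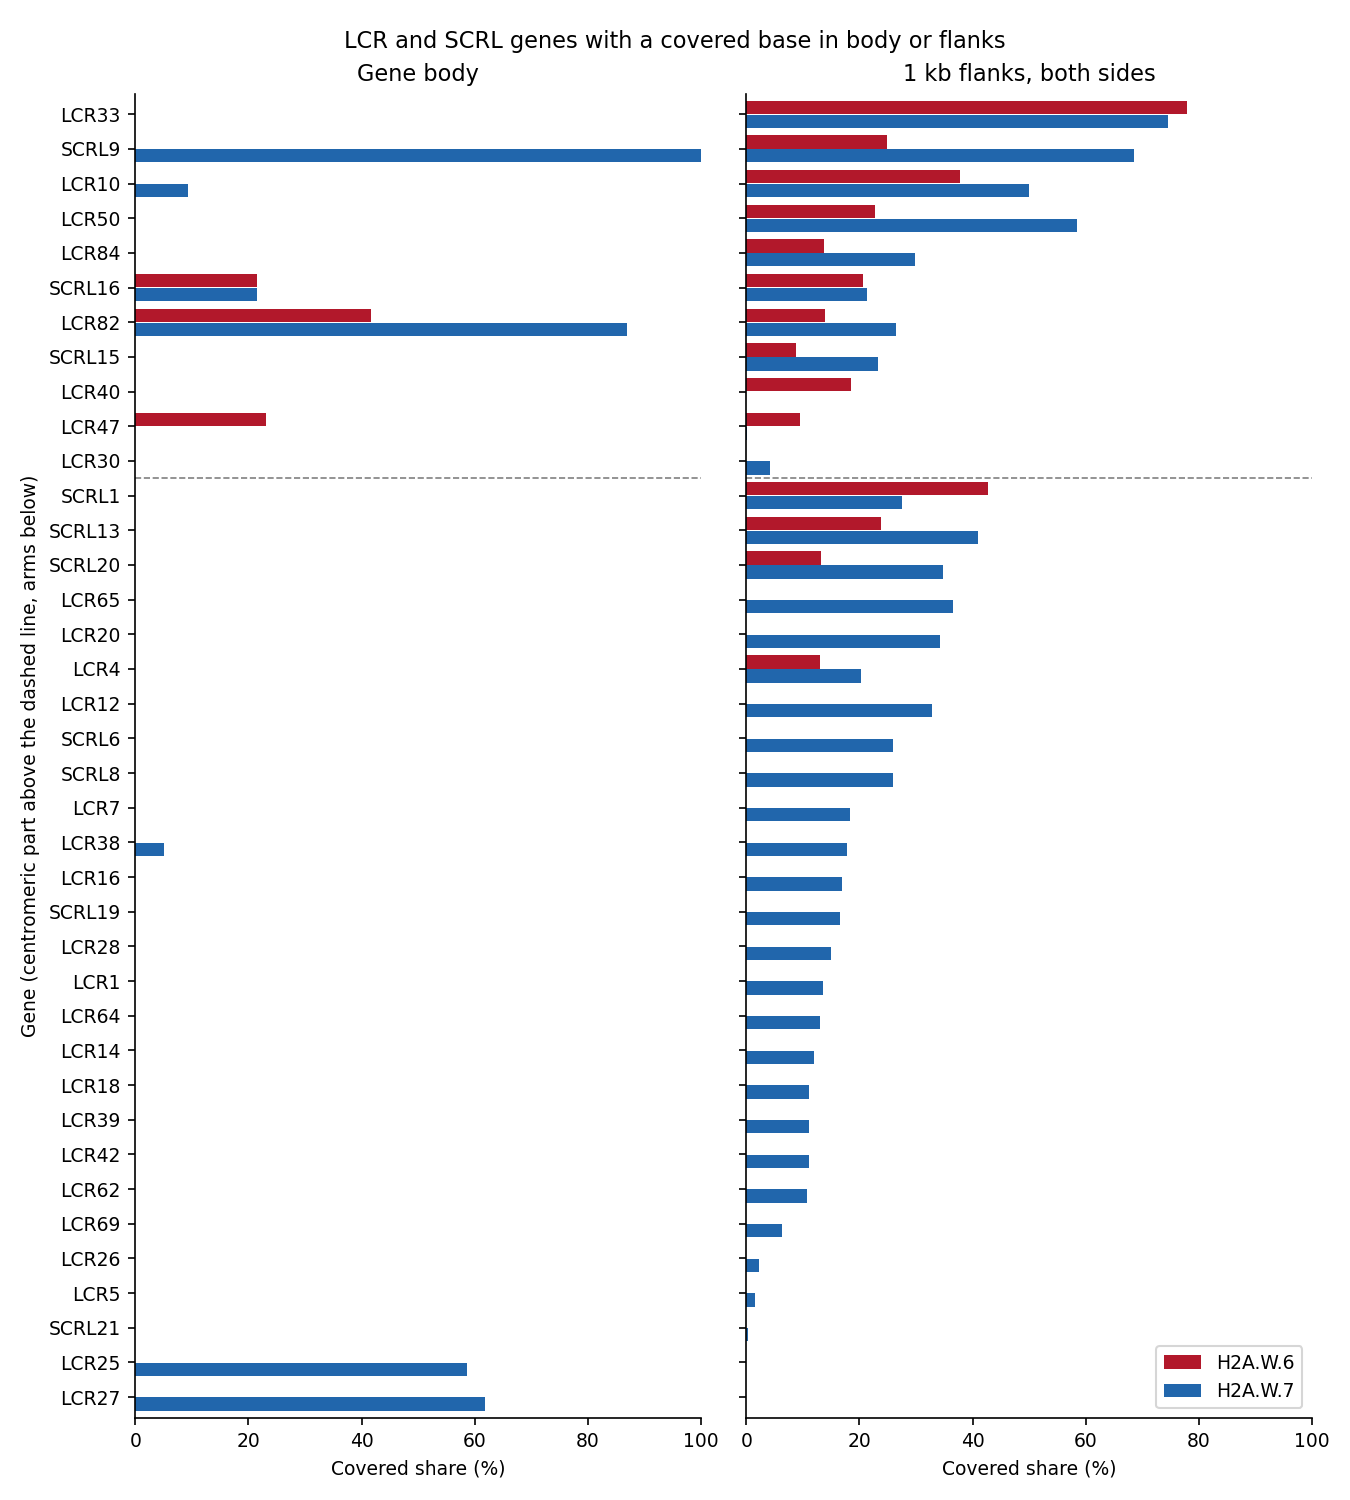
Covered share in percent of the gene body (left) and of the 1 kb flanks (right) for each LCR or SCRL gene with a covered base, H2A.W.6 in red above H2A.W.7 in blue, centromeric genes above the dashed line. Body cover of 50% or more appears in 4 genes, SCRL9, LCR82, LCR27 and LCR25, and only with H2A.W.7.

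The 2 arm genes past that limit were neighbours, LCR27 (AT4G29300) and LCR25 (AT4G29305), at the end of the run of 7 LCR genes on chromosome 4. LCR27 had 0% of its body under H2A.W.6 and 61.8% under H2A.W.7. LCR25 had 0% under H2A.W.6 and 58.7% under H2A.W.7. In each gene the cover came from a single short region that lay wholly inside the body, with no covered base in its own flanks. The region in LCR27 spanned positions 14434041 to 14434370 of chromosome 4 (330 bp), and that in LCR25 spanned 14436231 to 14436565 (335 bp). The other 5 genes of the run, LCR23, LCR22, LCR21, LCR24 and LCR26, had 0% body cover by both variants. The nearest H2A.W.6 region was 34.9 kb from LCR27 and 37.1 kb from LCR25, so the H2A.W.7 regions stood alone there. The third arm member with a covered base was LCR38, also on chromosome 4, with 0% under H2A.W.6 and 4.99% under H2A.W.7.

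**Figure D2:**
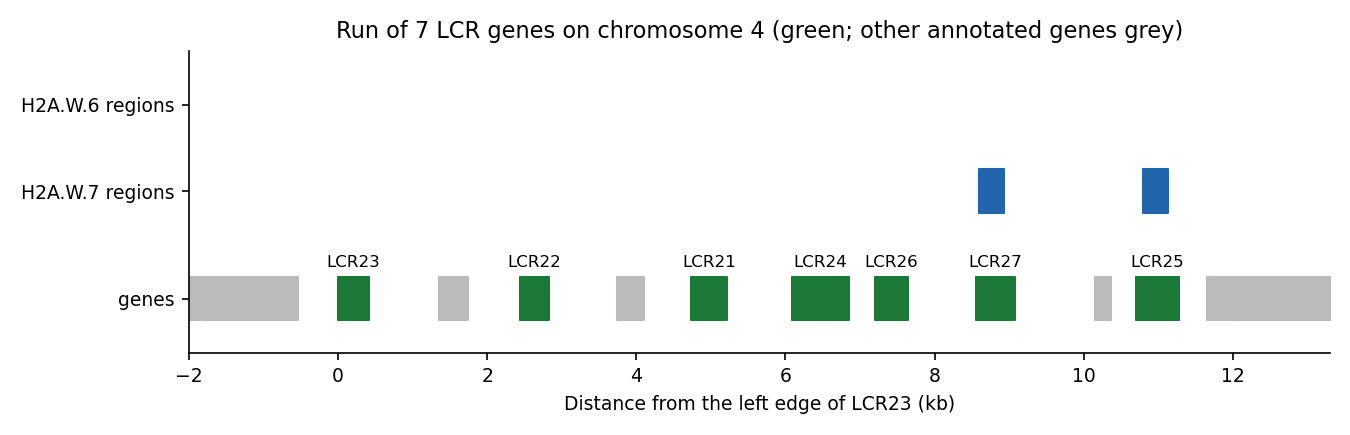
Run of 7 LCR genes on chromosome 4, in kb from the left edge of LCR23, with LCR genes in green, other annotated genes in grey, and the rows with H2A.W.6 and H2A.W.7 regions above them. The row of H2A.W.6 is empty, and the 2 H2A.W.7 regions of 330 and 335 bp lie inside LCR27 and LCR25.

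In the centromeric part 3 of 14 members had a covered base in the body with H2A.W.6 (21.4%, 7.57 to 47.6) and 4 of 14 with H2A.W.7 (28.6%, 11.7 to 54.6). The background there was 36.5% of all centromeric protein-coding genes with H2A.W.6 and 39.8% with H2A.W.7. At 50% or more of the body, 0 members counted with H2A.W.6 and 2 with H2A.W.7, beside 29.6% and 24.3% of all centromeric protein-coding genes. Mean body cover of the 14 members was 6.16% with H2A.W.6 and 15.6% with H2A.W.7. All centromeric protein-coding genes averaged 28.3% with H2A.W.6 and 24.2% with H2A.W.7. The members' medians were 0% for both variants, as were those of all centromeric protein-coding genes.

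SCRL9 on chromosome 2 had the widest gap between the variants of the 107 genes. Its body was covered over 0% by H2A.W.6 and over 100% by H2A.W.7, in a region from 1838161 to 1839075 that held no H2A.W.6 base. Its 1 kb flanks were covered over 24.9% by H2A.W.6 and 68.5% by H2A.W.7, so H2A.W.6 regions lay on both sides of the body and missed it. LCR82, also on chromosome 2, had 41.7% of its body under H2A.W.6 and 87.0% under H2A.W.7. There the H2A.W.6 region from 1536696 to 1537195 lay wholly inside the H2A.W.7 region from 1536446 to 1537435. SCRL16 had 21.5% under each variant, from regions of 275 bp that shared 260 bp. LCR10 had 0% under H2A.W.6 and 9.29% under H2A.W.7, and LCR47 had 23.1% under H2A.W.6 and 0% under H2A.W.7. LCR47 was thus the only member whose body held more H2A.W.6 than H2A.W.7. The other 9 centromeric members had 0% body cover by both variants: LCR29, LCR30, LCR33, LCR36, LCR40, LCR50, LCR84, SCRL15 and SCRL18.

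Beside the arm bodies, H2A.W.7 was found at more members than H2A.W.6. A covered base within 1 kb on either side was present in 4 of 93 arm members with H2A.W.6 (4.30%, 1.69 to 10.5) and in 25 with H2A.W.7 (26.9%, 18.9 to 36.7). The background of all arm protein-coding genes was 5.14% with H2A.W.6 and 17.4% with H2A.W.7. The H2A.W.6 interval includes its background. The H2A.W.7 interval lies above its background but includes the 23.3% of arm genes of the same length class. The mean cover of the arm members' flanks was 0.999% with H2A.W.6 and 4.90% with H2A.W.7, beside 0.969% and 3.99% for all arm protein-coding genes. All 4 members with H2A.W.6 in the flanks, SCRL1, SCRL13, SCRL20 and LCR4, also had H2A.W.7 there, and 21 had H2A.W.7 alone. The same order held at large. Of the 1303 arm protein-coding genes with H2A.W.6 in the flanks, 1217 also had H2A.W.7. Of the 4407 with H2A.W.7 there, 3190 had it alone.

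SCRL1, on chromosome 4, had the highest flank cover by H2A.W.6 in the arms, 42.8% of its flanks under H2A.W.6 and 27.5% under H2A.W.7. It was the only arm member with more H2A.W.6 than H2A.W.7 in the flanks. The cover lay on the right side, where an H2A.W.6 region of 1410 bp, from 6467416 to 6468825, met the pseudogene AT4G10460 and began 145 bp from the gene. SCRL13 on chromosome 3 had 23.9% under H2A.W.6 and 40.9% under H2A.W.7, also on the right side, and there too the regions met pseudogenes, AT3G23725 and, with H2A.W.7, AT3G23720 as well. SCRL20 had 13.2% under H2A.W.6 and 34.8% under H2A.W.7, from regions on its left that met no other gene. LCR4 had 13.0% and 20.2% in the same way, with H2A.W.6 and H2A.W.7.

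Within 1 kb H2A.W.7 lay alone beside the other 21 arm members, and the best covered of these were LCR65, LCR20 and LCR12. LCR65 on chromosome 1 had 36.5% of its flanks under H2A.W.7, with regions on both sides. LCR20 and LCR12 on chromosome 5 had 34.2% and 32.8% under H2A.W.7. All 3 had 0% under H2A.W.6. The H2A.W.7 regions at or beside arm members numbered 26, with a median length of 340 bp against 395 bp for the whole arm list. Of these, 20 met no other annotated gene, 2 met a pseudogene and 3 met another protein-coding gene, and 7 overlapped an H2A.W.6 region. The 3 include the region beside LCR26, where the other gene is the member LCR27. The 7 include the regions beside LCR69 and SCRL21, where H2A.W.6 lay just past 1 kb, at 1304 and 1089 bp from the gene. The 5 H2A.W.6 regions beside arm members all overlapped an H2A.W.7 region. These counts of regions were not set beside those of the whole arm lists, so they cannot be read as particular to the members.

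Several of these H2A.W.7 regions lay between tandem copies and were shared by a pair of members, named here after their values were seen. A region of 520 bp on chromosome 1, from 22455836 to 22456355, lay between SCRL8 and SCRL6 and covered 26.0% of the flanks of each. Another of 260 bp, from 27675211 to 27675470, lay between LCR64 and LCR65. On chromosome 3 a region of 220 bp, from 8265606 to 8265825, lay between LCR42 and LCR39 and covered 11.0% of the flanks of each. Arm members in runs had H2A.W.7 in the flanks in 11 of 39 genes, and single arm members in 14 of 54. With H2A.W.6 these counts were 1 of 39 and 3 of 54. All arm protein-coding genes had H2A.W.7 in the flanks in 17.4% and H2A.W.6 in 5.14%. Of the 14 runs, 6 had no H2A.W.7 base in any body or flank, among them the 4 LCR genes LCR61, LCR63, LCR59 and LCR19 on chromosome 4.

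In the centromeric part 10 of 14 members had H2A.W.6 in the flanks and 10 had H2A.W.7, 71.4% for both (45.4 to 88.3), beside a background of 55.7% with H2A.W.6 and 76.7% with H2A.W.7. Mean flank cover was 17.8% with H2A.W.6 and 25.5% with H2A.W.7, beside 25.6% and 30.2% over all centromeric protein-coding genes. LCR33 on chromosome 3 had the most of both variants, 77.9% of its flanks under H2A.W.6 and 74.6% under H2A.W.7, while its body of 1558 bp held none of either. The regions of both variants stopped 69 bp short of its left edge, and on the right they began at 353 bp with H2A.W.6 and at 333 bp with H2A.W.7. LCR50 had 22.8% and 58.6% with H2A.W.6 and H2A.W.7, with regions on both sides and an uncovered body. LCR10 had 37.8% and 50.0%, all on its right side, next to the pseudogene AT2G15540.

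The flanks of other centromeric members were covered less. H2A.W.6 and H2A.W.7 covered 20.6% and 21.4% of those of SCRL16, 13.9% and 26.4% of those of LCR82, 13.8% and 29.8% of those of LCR84 and 8.80% and 23.3% of those of SCRL15. LCR40 had 18.5% under H2A.W.6 and 0% under H2A.W.7, from a region of 370 bp that began 9 bp from the gene. LCR47 had 9.50% under H2A.W.6 and 0.05% under H2A.W.7, and LCR30 had 0% and 4.25%. LCR29, LCR36 and SCRL18 had 0% by both variants in body and flanks.

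**Figure D3:**
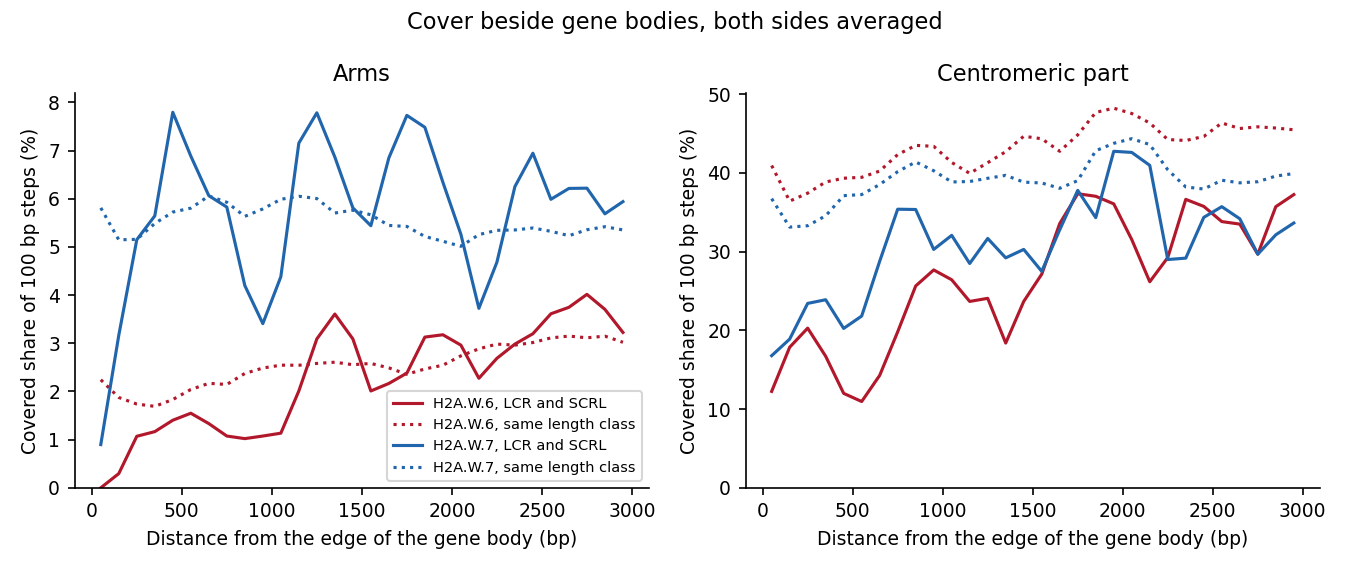
Mean covered share in percent of steps of 100 bp, by distance in bp from the edge of the gene body with both sides averaged, for LCR and SCRL genes (solid) and other protein-coding genes of the same compartment and length class (dotted), in the arms (left) and the centromeric part (right), H2A.W.6 in red and H2A.W.7 in blue. In the arms the first step beside the members holds 0% H2A.W.6 and 0.898% H2A.W.7, against 2.24% and 5.81% beside the comparison genes.

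The arm bases next to the bodies were the least covered. In the first 100 bp beside an arm member, mean cover was 0% with H2A.W.6 and 0.898% with H2A.W.7, and between 300 and 400 bp it was 1.17% and 5.65%. Other protein-coding genes of the same compartment and length class had 2.24% and 5.81% in the first 100 bp, and 1.69% and 5.49% between 300 and 400 bp. A region in the body or within 100 bp was found for 0% of arm members with H2A.W.6 and 6.45% with H2A.W.7. Comparison genes had such regions in 5.72% and 11.7%, and those with a symbol, chosen after seeing the data, in 1.95% and 6.63%. In the centromeric part the first 100 bp beside members had 12.2% H2A.W.6 and 16.8% H2A.W.7, against 40.9% and 36.7% beside the comparison genes. A region in the body or within 100 bp was found there for 50.0% of members with H2A.W.6 and 42.9% with H2A.W.7. Comparison genes had such regions in 60.7% and 61.3%, and those with a symbol in 16.8% and 44.4%. No strand is given in the gene table, so the side towards the promoter could not be told from the other.

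Short protein-coding genes were covered more often than protein-coding genes at large, and members were set beside all other protein-coding genes of their compartment and length class. Averaged over the members' classes, these 7238 arm genes had a covered base in the body in 5.51% with H2A.W.6 and 10.5% with H2A.W.7, against 0% and 3.23% of members. In the centromeric part mean body cover was 6.16% of a member and 51.4% of the 1179 comparison genes with H2A.W.6, and 15.6% and 45.7% with H2A.W.7. The gap was smaller for the 160 such genes with a symbol, chosen after seeing the data, at 14.0% with H2A.W.6 and 23.9% with H2A.W.7. In the flanks the arm members had H2A.W.6 in 4.30% and the comparison genes in 9.17%, and H2A.W.7 in 26.9% and 23.3%. Over both compartments the mean body cover of members was 0.0823 times that of comparison genes with H2A.W.6 and 0.257 times with H2A.W.7, and mean flank cover was 0.453 and 0.776 times.

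**Figure D4:**
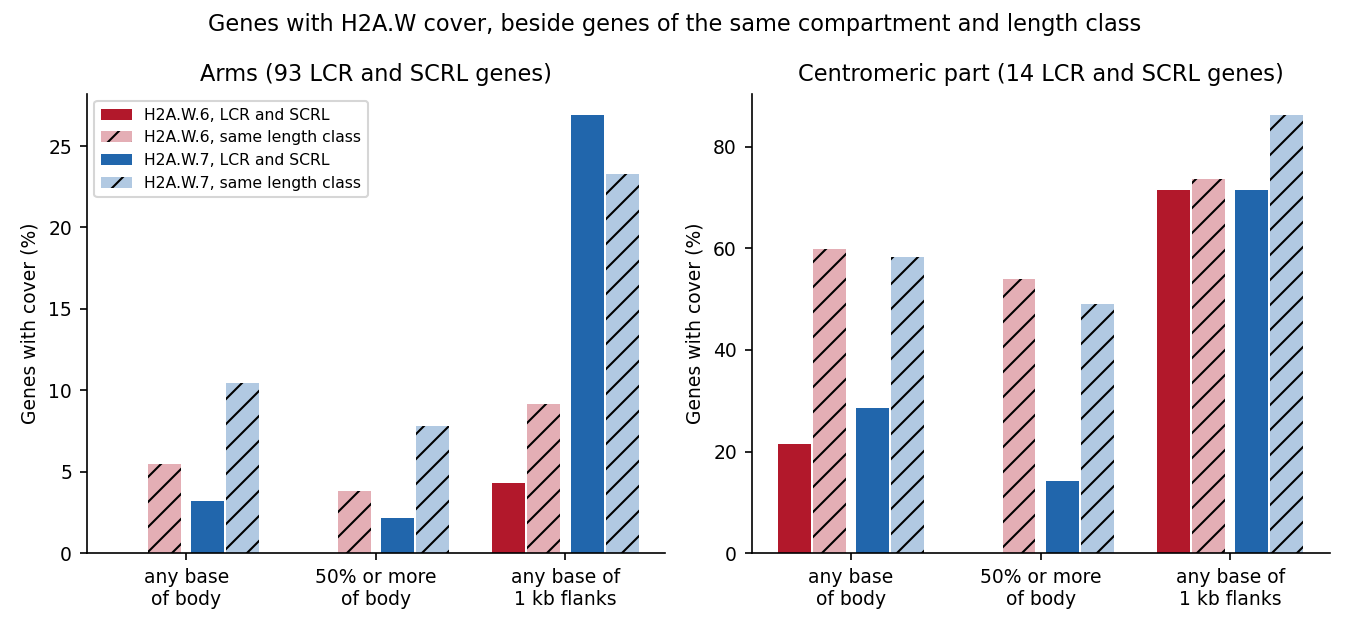
Percent of genes with any covered base in the body, with 50% or more of the body covered, and with any covered base in the 1 kb flanks, for LCR and SCRL genes (solid bars) and other protein-coding genes of the same compartment and length class (hatched bars to their right), H2A.W.6 in red and H2A.W.7 in blue. In both compartments the body counts of members are below those of these comparison genes, an order that turns for any H2A.W.6 base in the centromeric part when comparison genes with a symbol are used (21.4% against 16.8%), and in the arm flanks the members' H2A.W.7 share is 26.9% against 23.3%.

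The order of mean flank cover, and of some counts of genes, depended on which genes stood for comparison. All members carry a symbol, while 17070 of the 27444 protein-coding genes are listed under their locus tag alone. Against comparison genes with a symbol of their own, chosen after seeing the data, mean body cover of members over both compartments was still lower, at 0.299 times with H2A.W.6 and 0.545 times with H2A.W.7. In the centromeric part, however, H2A.W.6 had a covered base in the body of 21.4% of members (3 of 14), against 16.8% of the 160 comparison genes with a symbol, averaged over the members' classes, the reverse of the order against all comparison genes. Mean flank cover of members over both compartments was then higher, at 1.95 times with H2A.W.6 and 1.22 times with H2A.W.7. Shares of arm genes with covered flanks kept their order, 4.30% of members against 4.81% with H2A.W.6 and 26.9% against 17.9% with H2A.W.7. In the centromeric part the order turned with H2A.W.6, 71.4% against 44.1%, and held with H2A.W.7, 71.4% against 77.9%. Without chromosome 2, the body ratio to all comparison genes was 0.0541 with H2A.W.6, and the flank ratio of H2A.W.6 was 0.687.

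The 1 kb flanks of members held fewer bases of other genes than those of all comparison genes. In the arms 74.0% of the bases in the members' flanks lay outside any annotated gene, against 59.4% for genes of the same compartment and length class. For such arm genes with a symbol the share was 65.9%. In the centromeric part it was 86.8% for members, 76.4% for comparison genes and 88.9% for those with a symbol. Pseudogenes, the class that holds most transposon genes of this annotation, were counted here together with transcribed pseudogenes. A pseudogene of either kind lay within 5 kb of 31.2% of arm members and of 17.4% of comparison genes. Some lay inside the members' own runs, such as the transcribed pseudogenes AT4G29276 and AT4G29281 between LCR genes on chromosome 4. Of the 25 arm members with H2A.W.7 in the flanks, 6 had a pseudogene within 5 kb (24.0%), and of the 68 without H2A.W.7 there 23 had (33.8%). Among all arm protein-coding genes the shares were 25.3% with H2A.W.7 in the flanks and 10.4% without. Of the 4 arm members with H2A.W.6 in the flanks 2 had a pseudogene within 5 kb (50.0%), and of the 89 without H2A.W.6 there 27 had (30.3%), beside 40.1% and 11.5% of all arm protein-coding genes. These differences between counts were not tested.

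**Figure D5:**
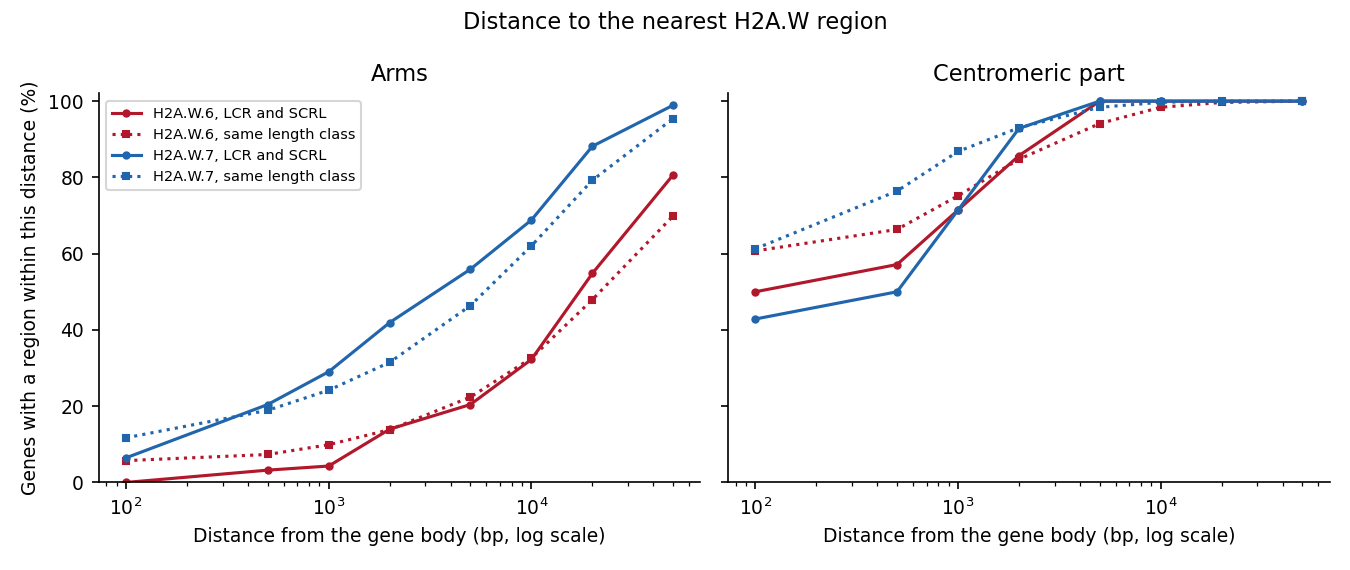
Percent of genes with a region within a given distance of the body (bp, log scale), for LCR and SCRL genes (solid, circles) and other protein-coding genes of the same compartment and length class (dotted, squares), H2A.W.6 in red and H2A.W.7 in blue. Within 2000 bp in the arms lie regions of H2A.W.6 for 14.0% of members and 13.8% of comparison genes, and of H2A.W.7 for 41.9% and 31.5%.

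The median distance from an arm member to the nearest region was 16.3 kb with H2A.W.6 and 3.86 kb with H2A.W.7. For all arm protein-coding genes, which are not matched for length, the medians were 28.5 and 7.58 kb. Within 2000 bp of an arm member, H2A.W.6 was found for 14.0% of members and 13.8% of comparison genes, and H2A.W.7 for 41.9% and 31.5%. Members of the arms that lay under 1 Mb from the centromeric part had H2A.W.6 in the flanks in 2 of 15 genes, and those between 1 and 3 Mb in 2 of 14. Beyond 3 Mb, 0 of 31 members at 3 to 6 Mb and 0 of 33 at 6 Mb or more had any. All arm protein-coding genes had H2A.W.6 in the flanks in 15.0%, 7.83%, 5.66% and 2.16% in the same order of distance. For H2A.W.7 the counts in the same order of distance were 5 of 15, 4 of 14, 12 of 31 and 4 of 33. All arm protein-coding genes had H2A.W.7 in the flanks in 40.7%, 26.8%, 18.6% and 9.33% at these distances. The members' share at 3 to 6 Mb was 38.7%, and its difference from the 18.6% there was not tested.

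Over both compartments, 3 of the 107 members had a covered base in the body with H2A.W.6 and 7 with H2A.W.7, beside 5.1% and 7.66% of all protein-coding genes. At 50% or more of the body the counts were 0 and 4, beside 3.24% and 3.54%, and in the flanks 14 and 35, beside 9.01% and 21.9%. These shares of all protein-coding genes are not matched for compartment or length. Genes of the same compartment and length class had covered flanks in 17.6% with H2A.W.6 and 31.5% with H2A.W.7, against 13.1% and 32.7% of members. LCR and SCRL genes were also counted apart. A covered base in the body was present in 1 of 27 SCRL genes and 2 of 80 LCR genes with H2A.W.6, and in 2 of 27 SCRL genes and 5 of 80 LCR genes with H2A.W.7. In the flanks H2A.W.6 was present in 6 of 27 SCRL genes (22.2%, 10.6 to 40.8) and in 8 of 80 LCR genes (10.0%, 5.15 to 18.5), with intervals that overlap. H2A.W.7 was present in 10 of 27 SCRL genes (37.0%, 21.5 to 55.8) and in 25 of 80 LCR genes (31.2%, 22.2 to 42.1). Among arm members alone, H2A.W.6 flanked 3 of 23 SCRL genes (13.0%, 4.54 to 32.1) and 1 of 70 LCR genes (1.43%, 0.253 to 7.66). These intervals overlap, and both include the 5.14% of all arm protein-coding genes.

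Some LCR genes are known as plant defensins, a class whose members include antifungal proteins. LCR66, LCR67, LCR68 and LCR72, listed also as PDF2.4, PDF1.1, PDF2.3 and PDF2.6, had no base of either variant in body or flanks. LCR69, listed also as PDF2.2, had 0% of its flanks under H2A.W.6 and 6.30% under H2A.W.7. The 8 genes under the symbol PDF had 0 bodies with a covered base by either variant. PDF2.1 alone among them had cover in its flanks, 25.3% under H2A.W.6 and 26.6% under H2A.W.7. The symbol rule left out SCRL28 and LCR71, annotated as transcribed pseudogenes, and both had 0% in body and flanks for each variant.

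LURE1 peptides are defensin-like attractants that guide pollen tubes to the ovule. All protein-coding genes had a covered base in the body in 5.1% with H2A.W.6 and 7.66% with H2A.W.7, and in the flanks in 9.01% and 21.9%. Most genes of the lists below lay in the arms. All arm protein-coding genes had a covered base in the body in 2.51% with H2A.W.6 and 4.99% with H2A.W.7, and in the flanks in 5.14% and 17.4%. The difference of the following small lists from these shares was not tested. Of the 10 egg cell and pollen tube peptide genes, 1 had H2A.W.6 in the body and 3 had H2A.W.7, all of them LURE1 genes on chromosome 5. LURE1.5 had 55.9% of its body under H2A.W.6 and 56.2% under H2A.W.7. LURE1.3 had 0% and 65.0%, and LURE1.4 had 0% and 49.4%, with H2A.W.6 and H2A.W.7. Of 34 RALF genes, which encode peptide signals of cell growth, 0 had a covered base in the body, 1 (2.94%) had H2A.W.6 in the flanks and 6 (17.6%) had H2A.W.7. Among 30 CLE genes, which encode peptide signals of stem cell niches, H2A.W.6 met 0 bodies and 0 flanks, and H2A.W.7 met 1 body, that of CLE11, and 3 flanks. The 6 lipid transfer protein genes and the 2 thionin genes had 0 covered bodies, and 11 leaf genes had 0 with H2A.W.6 and 1 with H2A.W.7, RBCS1A at 19.2%.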

How the data were processed

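The files deposited by the authors list the position of each enriched region, with no height, no score and no other value. Per the submitters' processing notes the build is TAIR10 and bedtools was used. No source used here names the aligner, the caller or the threshold. Gene positions were those of RefSeq for assembly TAIR10.1, with 37899 nuclear genes. Moved by up to 10000 bp either way, it gave the highest cover of arm pseudogenes with no shift on 5 of 5 chromosomes for both variants. Printed positions are those of regions, counted from 1. The table has no exons, strand, transposons or sequence, so peptide sequences are not shown.

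The centromeric part was bounded on each side by the multiple of 100 kb that separates arm from centromeric regions. Cover of bodies and of 1000 bp flanks was computed in Python 3.11.15 with pandas 2.3.3 and tested on simulated lists. Comparison genes were averaged within 9 length classes and 2 compartments, weighted to the members, with no random draw. Members named were those with a covered base in the body, the 10 with the highest flank cover per variant, and the centromeric ones; others were named after their values were seen. The members and lists were chosen with earlier results of these data known. The control library was not analysed here on its own. Alternatives changed limits, flank length, regions, chromosomes, families and comparison genes.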

Additional observations from a re-analysis of the deposited data

How the results depend on the processing

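The 14 results were recomputed to give 186 alternative values, of which 142 stayed close to the main value, 40 moved away and 4 crossed a ratio of 1. Close means inside the Wilson interval for shares and no more than 1.5 times off for means and ratios. The depth of the libraries is unknown, so what a deeper library would cover cannot be told, and the causes of these moves were not tested except where fewer regions or genes make them.

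Main values are those of all 107 members. Arms alone gave a mean body cover of 0% (H2A.W.6) and 1.35% (H2A.W.7), flank cover of 0.999% and 4.90%, H2A.W.6 in 0% of bodies and 4.30% of flanks, and a body ratio to comparison genes of 0 (H2A.W.6). The centromeric part alone gave body cover of 6.16% (H2A.W.6) and 15.6% (H2A.W.7), flank cover of 17.8% and 25.5%, a covered base in 21.4% and 28.6% of bodies and in 71.4% of flanks for either variant, and 14.3% of bodies past 50% (H2A.W.7). With 90% of the body as the limit, 0.935% of members counted (H2A.W.7). Flanks of 2000 bp held H2A.W.6 in 23.4% and H2A.W.7 in 48.6% of members, and flanks of 500 bp held H2A.W.7 in 21.5%. Only regions at or above the median length gave body cover of 0% (H2A.W.6, 0% of bodies) and 1.88% (H2A.W.7), H2A.W.6 flank cover of 1.24%, covered flanks in 5.61% (H2A.W.6) and 16.8% (H2A.W.7), and H2A.W.6 ratios of 0 (body) and 0.256 (flank). Without chromosome 2, body cover was 0.289% (H2A.W.6) and 1.57% (H2A.W.7), H2A.W.6 lay in 7.50% of flanks, and its ratios were 0.0541 (body) and 0.687 (flank). SCRL genes alone had H2A.W.6 flank cover of 4.97%, H2A.W.6 in 22.2% of flanks and an H2A.W.7 flank ratio of 1.00. Comparison genes with no length class gave body ratios of 0.172 (H2A.W.6) and 0.654 (H2A.W.7) and flank ratios of 0.760 and 1.02. Comparison genes with a symbol, chosen after seeing the data, gave body ratios of 0.299 and 0.545 and flank ratios of 1.95 and 1.22. No paired analysis was possible because each variant had 1 library.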
